A study of Mus musculus with 12 samples.

Results

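Dusp1, Dusp2, Dusp4, Dusp5, Dusp6, Dusp10, Spry1, Spry2, Spry4 and Spred1 are 10 genes whose products restrain mitogen-activated protein (MAP) kinase signaling. They were taken by symbol from the 54232 genes of a table of RNA-seq read counts, and all 10 were among the 14924 genes expressed well enough to be tested. The table covers 12 libraries of B16F10, a melanoma cell line of C57BL/6 mice, in 4 groups of 3. Untreated cells in culture are called WT. The relapsed lines ITF1, Rel and ITM were sorted from tumors that had grown under the skin of mice and come back after immunotherapy. These lines were then cultured to confluency. Lyso cells are B16F10 that had been given lysosomal granules secreted by T cells, for 48 hours by the labels and for a shorter time by the methods. These cells were seeded on coated low-adherence plates, a step not described for WT. Tumor 1, Tumor 3 and Tumor 4 are tumor cells sorted from treated mice whose RNA was extracted at once. The labels give an age of 6 weeks for all 12 libraries, WT and Lyso included, while the methods give an older range for the mice. The immunotherapy combined an agonist antibody to CD40, TNFα and an antibody to the melanoma protein TRP1, and WT and Lyso cells did not receive it. Neither the labels nor the methods say whether the libraries of a group came from separate cultures or animals, so p-values measure the spread between these libraries, which may be technical.

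Growth factor receptors signal through Ras, Raf and MEK to the kinase ERK, which enters the nucleus and switches on early genes, among them its own inhibitors. DUSP proteins are phosphatases that remove the activating phosphates from MAP kinases. Dusp6 acts in the cytoplasm and prefers ERK, Dusp1, Dusp2, Dusp4 and Dusp5 act in the nucleus, and Dusp10 prefers p38 and JNK, the MAP kinases of stress. Sprouty and Spred proteins act upstream, between the receptor and Raf. In melanoma cells some of these genes, such as Dusp6, are read as a transcript-level record of ERK pathway activity. That reading does not extend to the whole set, since Dusp10 prefers p38 and JNK and Dusp1 is also induced by stress. The phosphorylation of ERK itself was not measured here.

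WT was sequenced at uneven depth, with 1667398 counts on genes in WT 1, 2350129 in WT 2 and 16384021 in WT 3. Tumor libraries held 3102442 to 5049496 counts, and the Lyso libraries and relapsed lines held 10895611 to 16402629. At this depth Dusp5 had only 3 counts in WT 1 and 3 in WT 2, the floor of detection used here, and Dusp10 had 4 in WT 1. Values are CPM, the counts of a gene relative to the library's total after TMM scaling, ± SD over 3 libraries, and such counts carry counting error as well as the spread between libraries. Differences were tested with edgeR's quasi-likelihood test on all 12 libraries, with the Benjamini-Hochberg adjustment over all genes tested, and a gene was called at an adjusted p under 0.05.

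The start regions of Dusp1 and Dusp5 are shown because these were the members with the largest differences in Tumor, and because they alone of the 8 members with a RefSeq promoter held one of the motifs of inducible genes that were searched. Each run is the 250 bases before the RefSeq start (GRCm38.p6), read 5′ to 3′ on the gene's strand. Capitals mark the cAMP response element (CRE, TGACGTCA), its half-site TGACG on either strand, and CArG boxes, the sites bound by serum response factor. The Dusp1 run lies at chr17:26508473-26508722 on the minus strand and the Dusp5 run at chr19:53528895-53529144 on the plus strand.
Dusp1: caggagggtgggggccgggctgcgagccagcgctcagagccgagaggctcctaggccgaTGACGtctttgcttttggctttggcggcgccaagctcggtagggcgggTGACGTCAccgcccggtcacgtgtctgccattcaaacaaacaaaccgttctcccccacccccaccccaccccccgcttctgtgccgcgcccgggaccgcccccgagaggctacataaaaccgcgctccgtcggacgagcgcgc
Dusp5: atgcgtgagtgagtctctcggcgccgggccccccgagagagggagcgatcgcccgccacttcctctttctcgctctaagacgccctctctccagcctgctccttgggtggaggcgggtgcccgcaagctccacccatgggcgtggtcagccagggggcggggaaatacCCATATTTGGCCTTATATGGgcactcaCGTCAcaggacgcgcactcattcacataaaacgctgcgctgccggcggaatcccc
Dusp1 held 1 full CRE, 143 to 136 bases before the start, and a separate half-site 191 to 187 bases before it. The full CRE also contains a half-site on each strand. Dusp5 held 2 adjoining CArG boxes, 82 to 73 and 72 to 63 bases before the start, and a half-site 55 to 51 bases before it. Of 32817 mouse promoters of the same length, 1.55% held the full CRE, 17.7% a half-site and 1.47% a CArG box. The AP-1 motif TGANTCA, the ETS motif CCGGAAG and the STAT motif TTCNNNGAA, on either strand, were in 0 of the 8 members, against 6.75%, 6.9% and 7.01% of all promoters. These matches describe letters in a window and not binding. Dusp4 and Spry4 were not in the promoter table.

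In untreated cells the set was dominated by Dusp4 and Dusp6. Scaled by exonic length (CPM per kilobase, RPKM), Dusp4 stood at 65.0 ± 6.50 RPKM and Dusp6 at 30.4 ± 2.38 RPKM. Spry2 (13.1 ± 2.19 RPKM) and Spred1 (11.98 ± 2.75 RPKM) followed, with ranges that overlapped. Spry1 and Dusp2 came next and overlapped each other, then Dusp1 at 4.67 ± 0.240 RPKM, then Dusp10 and Spry4, which also overlapped. Dusp5 was lowest at 0.535 ± 0.142 RPKM. Dusp4 made up 45.1% ± 4.58 of the summed RPKM of the 10 genes in WT, and Dusp6 21.1% ± 1.47.

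The summed RPKM differed widely between groups. It was 144.2 ± 1.34 in WT, 254.8 ± 7.54 in Lyso and 354.8 ± 22.5 in Tumor, with no overlap among these 3 groups. In Lyso the sum was led by Dusp6, whose share of the sum was 35.8% ± 0.605, and Dusp6 drew level with Dusp4 (91.1 ± 3.45 and 85.6 ± 3.02 RPKM). In Tumor Dusp1 made up 14.1% ± 1.48 of the sum against 3.24% ± 0.146 in WT, and Spry2 14.3% ± 1.17 against 9.09% ± 1.47. The relapsed lines spread from 95.8 to 226.0, on both sides of WT.

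**Figure D1:**
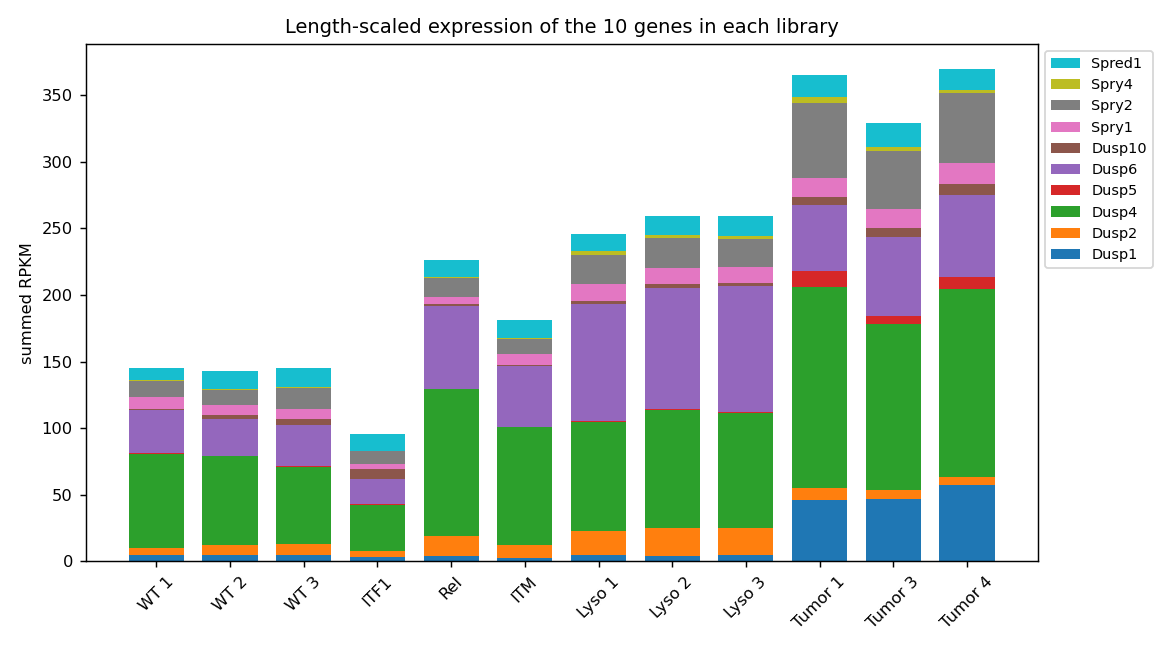
Summed RPKM of the 10 genes in each of the 12 libraries, as stacked bars with 1 color per gene (y axis, summed RPKM from 0). WT libraries stood at 142.7 to 145.1, Lyso at 246.1 to 259.2 and Tumor at 329.0 to 370.0, while the relapsed lines ranged from 95.8 in ITF1 to 226.0 in Rel.

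The first comparison, Lyso against WT, asks how these genes stood in cells given T cell granules. The coated low-adherence plates were described for Lyso only, so plating cannot be told apart from the granules here. The ERK-selective phosphatase Dusp6 rose about 3-fold, the nuclear phosphatase Dusp2 2.7-fold and the receptor-level inhibitor Spry2 1.6-fold. Thus 3 of the 10 genes were called higher and 0 lower, where 4.71% of all genes tested were called in either direction and 3.5% higher. The median log2 fold change of the 10 was 0.59, against -0.005 over all genes tested.

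Dusp6 stood at 101.3, 87.0 and 97.7 CPM in WT 1, WT 2 and WT 3 and at 274.2, 286.1 and 295.8 CPM in Lyso 1, Lyso 2 and Lyso 3. Every Lyso library was far above every WT library, and the Lyso libraries lay close together. The log2 fold change was 1.58 (standard error 0.31, adjusted p = 0.00996, edgeR). Dusp6 was called with any library left out, but not against WT 3 alone, where 1 control carries the comparison (log2 fold change 1.54, adjusted p = 0.151, edgeR).

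Dusp2, which acts on nuclear ERK and p38 and is best known from activated leukocytes, had 11.3, 15.2 and 16.5 CPM in WT and 36.2, 41.9 and 41.5 CPM in Lyso. The groups did not overlap. Its log2 fold change was 1.43 (standard error 0.35, adjusted p = 0.0347, edgeR), and the call was lost when any 1 of the 6 libraries was left out, with an adjusted p of 0.0684 to 0.100. Markers of T cells were also higher in these libraries, with a summed level of 15.95 to 17.3 CPM over 12 markers in Lyso against 1.27 to 6.79 CPM in WT. Of 4 T cell markers tested, 3 were called higher by edgeR, each with 0 counts in WT. These 3 entered the test only through Lyso, so their difference followed from the filter on low counts. Lck, the marker tested that had counts in WT, overlapped WT and was not called (adjusted p = 0.307, edgeR). The granzyme gene Gzmb had 63 to 72 counts per Lyso library, and the co-receptor genes Cd8a and Cd8b1 had 13 to 28 and 13 to 16. The CD3 chain genes Cd3e and Cd3d, too low to be tested, had up to 7 and 5 counts. Of 8 myeloid markers tested, 1 was called higher in Lyso and 0 lower. This was the pan-leukocyte gene Ptprc, at 2.94 ± 0.726 CPM against 0.141 ± 0.244 CPM in WT. The part of T cell RNA in the Dusp2 difference was not tested. In bulk libraries, more cells of a type and more RNA per cell cannot be told apart.

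Spry2 had 26.0, 23.6 and 32.5 CPM in WT and 44.2, 46.6 and 44.2 CPM in Lyso, again without overlap. Its log2 fold change was 0.68 (standard error 0.17, adjusted p = 0.0381, edgeR). The call held without WT 3 and was lost without any 1 of WT 1, WT 2, Lyso 1, Lyso 2 or Lyso 3, with adjusted p-values up to 0.125. Spry4 moved as far as Dusp6 but was measured on few counts, with 3.40, 5.07 and 4.54 CPM in WT (6, 12 and 77 counts) and 15.8, 11.6 and 11.99 CPM in Lyso. The groups did not overlap, and the log2 fold change was 1.56 (standard error 0.56, adjusted p = 0.148, edgeR), which did not pass. Spry1 (22.9 ± 1.76 CPM in WT, 35.7 ± 2.05 CPM in Lyso, adjusted p = 0.126 in edgeR) and Dusp4 (178.1 ± 17.8 and 234.4 ± 8.28 CPM, adjusted p = 0.523 in edgeR) also lay higher in every Lyso library without passing. In all, 6 of the 10 genes were higher in every Lyso than in every WT library, a pattern found in 15.8% of all genes tested. Dusp1, Dusp5, Dusp10 and Spred1 overlapped between Lyso and WT, with log2 fold changes of -0.07, 0.54, -0.16 and 0.18.

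**Figure D2:**
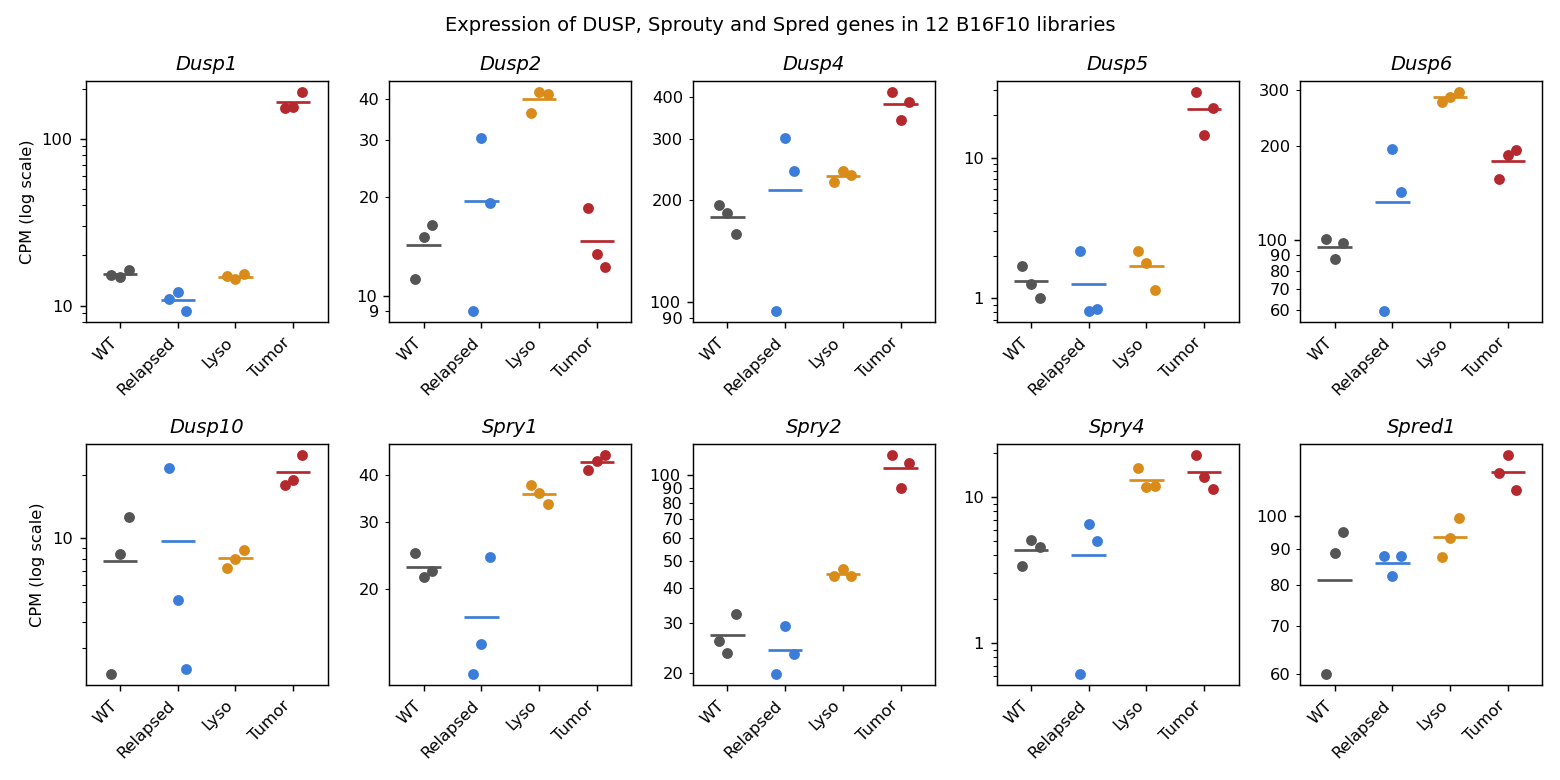
CPM of each of the 10 genes in every library (points) with the group mean (line), on log axes, 1 panel per gene. Dusp6 and Dusp2 stood highest in Lyso, Dusp1, Dusp5 and Spry2 highest in Tumor, and Dusp4 and Dusp6 spread more widely in the relapsed lines than in any other group.

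The second comparison, Tumor against WT, asks how these genes stood in tumor cells taken straight from treated animals. The picture was led by Dusp1 and Dusp5, which were not called in Lyso, while Spry2 was called in both. Dusp1, a stress-inducible phosphatase of p38, JNK and ERK, rose 10.6-fold, the nuclear ERK phosphatase Dusp5 18.8-fold and Spry2 3.8-fold. Dusp4, Spry1 and Spred1 rose by smaller steps, so that 6 of the 10 genes were called higher and 0 lower. Of all genes tested, 19.0% were called in this comparison and 12.1% called higher. The median log2 fold change of the 10 genes was 1.15, against 0.001 over all genes tested.

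Dusp1 (GRCm38 chromosome 17, 26505590 to 26562128) had 15.3, 14.8 and 16.3 CPM in WT and 152.5, 154.0 and 190.7 CPM in Tumor 1, Tumor 3 and Tumor 4. In culture its level was narrow, and each Tumor library was far outside that band. The log2 fold change was 3.40 (standard error 0.14, adjusted p = 1.26e-08, edgeR).

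Dusp5 (chromosome 19, 53529109 to 53542431) had 1.70, 1.27 and 1.002 CPM in WT and 29.3, 14.5 and 22.4 CPM in Tumor. It was barely detected in every cultured group and clearly present in each Tumor library, and in edgeR the log2 fold change came to 4.23 ± 0.48 (standard error), at an adjusted p of 7.33e-05. An annotated gene on the opposite strand, AC137853.2, covers 22.1% of the exonic bases of Dusp5. The strand setting of the counting was not given in the sources used here, so reads of this neighbor cannot be told apart from those of Dusp5.

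Spry2, which blocks signaling between receptor and Ras, had 118.0, 90.2 and 109.9 CPM in Tumor, all above the 23.6 to 32.5 CPM of WT. The log2 fold change was 1.91 (standard error 0.17, adjusted p = 9.00e-06, edgeR). Dusp1, Dusp5 and Spry2 were called in every alternative analysis in which they were tested.

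Dusp4, a nuclear phosphatase and the most abundant member per length, had 193.0, 182.8 and 158.3 CPM in WT and 412.8, 342.2 and 385.6 CPM in Tumor. The groups did not overlap (log2 fold change 1.10, standard error 0.30, adjusted p = 0.0226, edgeR), but the call was lost without WT 2, WT 3, Tumor 1 or Tumor 4, with adjusted p-values of 0.0578, 0.0885, 0.0700 and 0.0589. Spry1 had 24.9, 21.5 and 22.4 CPM in WT and 41.3, 43.5 and 45.2 CPM in Tumor (log2 fold change 0.93, standard error 0.22, adjusted p = 0.0114, edgeR). Its libraries did not overlap, and its call was lost without WT 3 (adjusted p = 0.0591, edgeR). Gm42922, on the opposite strand, covers 24.4% of the exonic bases of Spry1 and held 1 to 40 counts per library, against 44 to 414 for Spry1. Spred1, a membrane-bound partner of the Ras regulator neurofibromin, had 60.0, 88.7 and 95.1 CPM in WT and 115.1, 122.0 and 108.7 CPM in Tumor. This was the smallest of the called steps (log2 fold change 0.49, adjusted p = 0.0348, edgeR), and it was lost without WT 2 or any 1 of the Tumor libraries, with adjusted p-values up to 0.125.

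Dusp6 and Spry4 lay higher in every Tumor library but just missed the threshold in edgeR. DESeq2 called both (adjusted p = 0.0203 for Dusp6 and 0.01315 for Spry4), and 8 of the 10 genes in all. Of all 14924 genes tested, DESeq2 called 2970 in this comparison. Dusp6 had 156.4, 187.2 and 193.5 CPM in Tumor (log2 fold change 0.91, adjusted p = 0.0534, edgeR) and Spry4 19.5, 13.7 and 11.3 CPM (log2 fold change 1.72, adjusted p = 0.0544, edgeR). Dusp10 had 17.9, 18.9 and 25.0 CPM against 2.26, 8.44 and 12.7 CPM in WT, where its spread was wide (adjusted p = 0.234, edgeR). Dusp2 overlapped, at 18.5, 13.5 and 12.2 CPM. In all, 9 of the 10 genes were higher in every Tumor than in every WT library, against 21.0% of all genes tested.

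**Figure D3:**
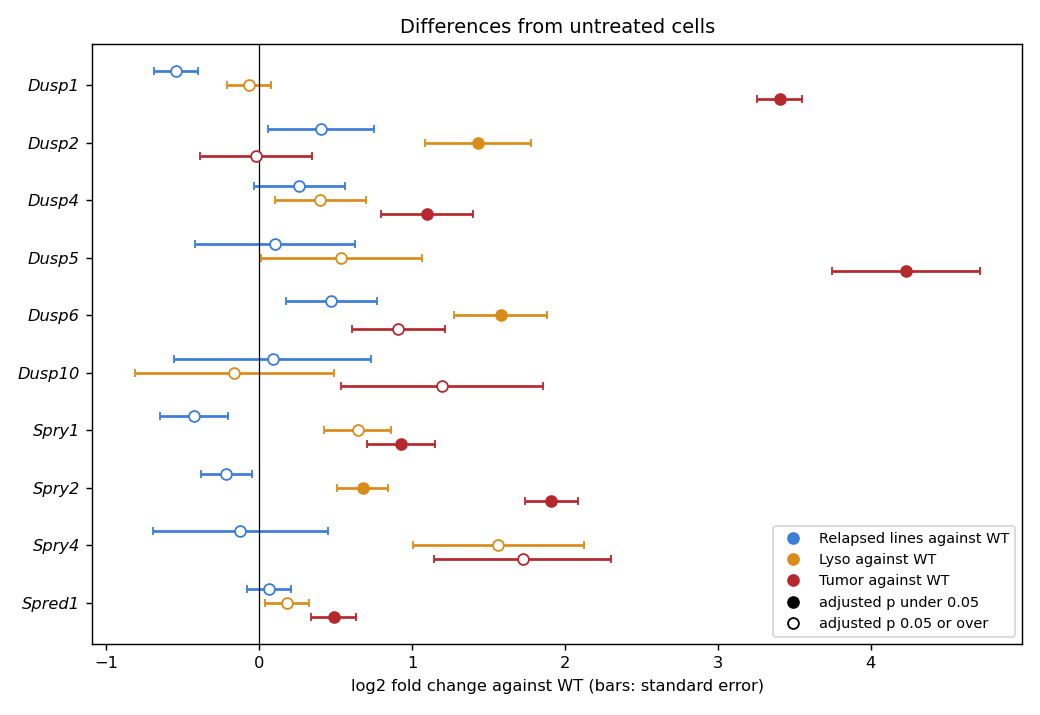
Log2 fold change against WT of each gene (x axis, bars are standard errors) in the relapsed lines, Lyso and Tumor, from the edgeR fit. Filled points passed an adjusted p under 0.05. Dusp6, Dusp2 and Spry2 were filled for Lyso, 6 genes including Dusp1 and Dusp5 for Tumor, and 0 for the relapsed lines.

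RNA of host cells and of the immediate early response was also higher in the Tumor libraries. All 10 fibroblast markers were called higher, with a summed level of 7707 to 10710 CPM against 30.0 to 39.5 CPM in WT, where Lum and Thy1 were at 0. Myeloid markers summed to 48.4 to 79.3 CPM against 12.4 to 29.2 CPM (7 of 8 tested called higher). Endothelial markers summed to 56.0 to 59.5 CPM against 13.5 to 24.9 CPM, with 6 of 7 tested called higher and 1, Egfl7, called lower. Of all genes tested, 12.1% were called higher. Markers at or near 0 CPM in every cultured group, such as Col3a1, Dcn, Lum, C1qa, C1qb and Kdr, entered the test only through Tumor. Their difference followed from the filter on low counts. The 12 T cell markers summed to 3.82 to 9.89 CPM in Tumor and 1.27 to 6.79 CPM in WT, with 0 of 4 tested called by edgeR (2 at an unadjusted p under 0.05, 0 by DESeq2) and with Cd3e, Cd3d and Cd8b1 at 0 in Tumor. Melanocyte markers, at 19650 to 21570 CPM in Tumor and 19230 to 27460 CPM in WT, remained abundant in both. Of the 8 tested, Mitf was called higher (log2 fold change 0.995), Tyrp1 lower (log2 fold change -0.656) and 6 were not called. Mlana and Gpr143 lay lower in every Tumor library without passing. All 16 immediate early genes, a class that tissue handling can also induce, were called higher in Tumor, with a summed level of 5170 to 6465 CPM against 462.3 to 642.7 CPM. The part of fibroblast RNA and of tissue digestion and sorting in the Dusp1, Dusp5 and Spry2 differences was not tested, and sorting cannot be told apart from the tumor itself in this design.

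Tumor and Lyso share the same WT controls, so they were also compared directly. Dusp1, Dusp5 and Spry2 were called higher in Tumor than in Lyso, with log2 fold changes of 3.47, 3.69 and 1.23. Dusp2 was called lower, with a log2 fold change of -1.45 in edgeR (adjusted p = 0.00818), with 12.2 to 18.5 CPM in Tumor and 36.2 to 41.9 CPM in Lyso. These 3 higher and 1 lower genes stood against 14.2% and 10.5% of all genes tested, 24.7% in all. Dusp6 was lower in every Tumor than in every Lyso library, though without passing (log2 fold change -0.67, adjusted p = 0.117, edgeR). Thus Dusp2 was elevated over WT and over Tumor in Lyso, and Dusp1 and Dusp5 were elevated over WT and over Lyso in Tumor.

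The comparison of the relapsed lines with WT asks whether any difference remained once relapsed cells were returned to culture. As a group, 0 of the 10 genes were called against WT in edgeR, and 0 in DESeq2. Of all genes tested 0.0402% were called by edgeR, and DESeq2 called 176 of 14924. By edgeR 1 of the 10 genes, Dusp1, had an unadjusted p under 0.05, as had 1636 of all 14924 genes tested. Dusp1 had 10.9, 12.1 and 9.23 CPM in ITF1, Rel and ITM, each below the lowest WT library at 14.8 CPM (log2 fold change -0.54, standard error 0.14, adjusted p = 0.193, edgeR). It was the 1 member separated from WT in all 3 lines, where 4.19% of all genes tested lay lower in every line than in every WT library.

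The lines differed from each other instead. Dusp6 had 59.4 CPM in ITF1, 194.6 CPM in Rel and 142.7 CPM in ITM, against 87.0 to 101.3 CPM in WT. Dusp4 had 94.1, 302.8 and 241.7 CPM, and Dusp2 8.98, 30.5 and 19.2 CPM in the same order. Each of these phosphatases was thus below the WT range in ITF1 and above it in Rel and ITM. Spry4, an inhibitor of receptor signaling to Ras, followed the same order with 0.614, 6.49 and 4.97 CPM, a 10.6-fold spread that rests on 8 counts in ITF1. Dusp10, the phosphatase of p38 and JNK, and Dusp5 ran the other way and were highest in ITF1, Dusp10 at 21.6 CPM against 5.09 in Rel and 2.40 in ITM. Spred1 hardly varied, at 82.4 to 88.0 CPM.

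Counted over the set, ITF1 lay below the WT range for 7 of the 10 genes, Rel for 3 and ITM for 3, where 21.3%, 21.8% and 19.0% of all genes tested lay below it. Of 12 other genes induced by ERK signaling, 6 were below the WT range in ITF1, 5 in Rel and 4 in ITM. The SD of log2 CPM over the lines had a median of 0.78 for the 10 genes and 0.25 over all genes tested, and 6 of the 10 exceeded the 90th percentile of all genes (0.68). In Lyso the medians were 0.09 and 0.12, and in Tumor 0.19 and 0.17. With 1 library per line, a difference between lines has no replicate check. Without ITF1, the line below the WT range for Dusp6, Dusp6 was called higher than in WT (log2 fold change 0.83, adjusted p = 0.0334, edgeR). Without ITM, the line within the WT range for Spry1, Spry1 was called lower (log2 fold change -0.78, adjusted p = 0.0239, edgeR). Both calls followed from leaving out the line that differed from the others, so they add no support for a difference from WT.

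**Figure D4:**
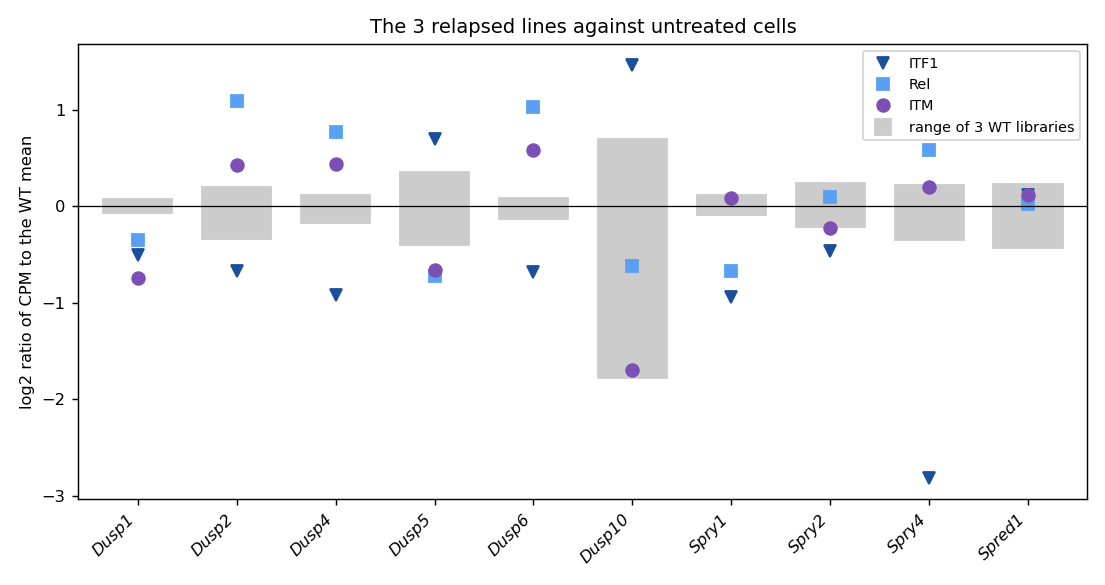
Log2 ratio of each gene's CPM in ITF1, Rel and ITM to the mean of WT (y axis), with the range of the 3 WT libraries as gray bars. ITF1 fell below the gray range for 7 genes, down to -2.82 for Spry4, while Dusp2, Dusp4 and Dusp6 lay above it in Rel and ITM.

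Tumor was next set against the relapsed lines, both derived from treated tumors but without and with culture. Dusp1, Dusp5, Spry1, Spry2 and Spry4 were called higher in Tumor, which is 5 of the 10 genes against 11.8% of all genes tested called higher and 19.6% called in either direction. Their log2 fold changes were 3.95, 4.13, 1.35, 2.13 and 1.85. The Spry4 call (adjusted p = 0.0240, edgeR) was lost without Tumor 1 (adjusted p = 0.0911, edgeR) or Tumor 3 (adjusted p = 0.0606, edgeR). The fibroblast markers named above differed here too, with 19.9 to 31.2 CPM in the relapsed lines.

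Lyso against the relapsed lines compares cultured libraries of like depth. Dusp6, Spry1, Spry2 and Dusp1 were called higher in Lyso, 4 of the 10 genes against 4.87% of all genes tested called higher and 7.69% called in either direction. Spry1 had 37.6, 35.9 and 33.5 CPM in Lyso and 11.98, 14.4 and 24.4 CPM in the lines (log2 fold change 1.07, standard error 0.21, adjusted p = 0.00759, edgeR). For Spry2 the log2 fold change was 0.89 (standard error 0.16, adjusted p = 0.00450, edgeR), and for Dusp6 1.11 (adjusted p = 0.0381, edgeR). Spry1 and Spry2 kept their calls with any library left out. Dusp6 lost its call without any 1 of the Lyso libraries, and Dusp1 (log2 fold change 0.48, adjusted p = 0.0450, edgeR) without ITF1, ITM or any Lyso library, with adjusted p-values up to 0.114 and 0.152.

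The pathway around the 10 genes was then counted from lists of pathway genes. In Lyso, 4.71% of all genes tested were called in either direction. Of 9 other MAP kinase phosphatase, Sprouty and Spred genes, 0 were higher and 1 was lower, namely Dusp3 (144.6 ± 9.69 CPM in WT, 83.1 ± 4.12 CPM in Lyso, log2 fold change -0.80, adjusted p = 0.00453 in edgeR), an atypical phosphatase of ERK and JNK. None of 14 other inhibitors, 18 genes of the core ERK cascade, 10 p38 and JNK kinases or 17 receptors and ligands was called by edgeR. At an unadjusted p under 0.05 there were 3, 3, 4 and 3, where 18.7% of all genes tested lay under it, and DESeq2 called 1 (Sh2b3, named after its values were seen), 0, 0 and 0. Of 12 other genes induced by ERK signaling only Egr1, a zinc finger factor of the immediate early class, was called by edgeR, at 64.0 ± 15.4 CPM in Lyso and 3.43 ± 0.715 CPM in WT (adjusted p = 0.00496, edgeR). At an unadjusted p under 0.05, 3 of the 12 were higher and 1 lower, and DESeq2 called 2 higher and 0 lower. Of all 14924 genes tested, DESeq2 called 1058 in Lyso against WT. Without overlap between Lyso and WT, 4 of the 12 were higher, where 15.8% of all genes tested were, and 1 was lower. Of 16 immediate early genes, 4 were higher, among them Egr1, Egr2 and the RNA-destabilizing protein gene Zfp36 (log2 fold change 2.97), and 1 was lower, the matrix protein gene Ccn1 (log2 fold change -1.74).

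In Tumor, 19.0% of all genes tested were called in either direction. Of the 12 other genes induced by ERK signaling, 8 were higher and 0 lower, led by Egr1 (262.5 ± 23.2 CPM), the AP-1 subunit Fosl1 (4.20 ± 1.24 CPM against 0.636 ± 0.431 CPM in WT) and the ETS factor Etv1 (25.1 ± 2.61 CPM against 5.17 ± 2.63 CPM). The AP-1 subunits Fosb and Fos reached 1105 ± 175.9 and 959.5 ± 77.4 CPM, from 3.53 ± 1.35 and 9.39 ± 3.06 CPM. Of the 18 core cascade genes 1 was higher, the scaffold Ksr1 (log2 fold change 1.84), and 2 were lower, Hras (log2 fold change -0.91) and Araf (log2 fold change -0.41). Of the p38 and JNK list, Map2k6 was higher and Map2k3 lower, both of them kinases that activate p38.

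Of the 9 other family members in Tumor, Spred2 was higher (69.0 ± 5.52 CPM against 43.4 ± 5.64 CPM) and Dusp7, a cytoplasmic ERK phosphatase related to Dusp6, was lower (18.8 ± 1.66 CPM against 41.4 ± 8.78 CPM, log2 fold change -1.17, adjusted p = 0.000556 in edgeR). Of the 14 other inhibitors 4 were higher and 1 lower. The receptor inhibitor Errfi1 stood at 93.5 ± 10.6 CPM against 20.5 ± 1.54 CPM, the ubiquitin ligase Cblb at 20.6 ± 3.12 CPM against 8.09 ± 1.66 CPM and Lrig1, which promotes loss of growth factor receptors, at 6.21 ± 2.91 CPM against 0.239 ± 0.217 CPM. The Ras GTPase-activating protein gene Rasa2 was lower (log2 fold change -0.56). Of the 14 receptors and ligands tested that had counts in WT, 6 were higher and 1, Fgfr3, lower, and Pdgfra and Pdgfrb of this list are also fibroblast markers. A further 3 genes of the list had 0 counts in WT and entered the test only through Tumor, so their difference followed from the filter on low counts. Egfr had 0 counts in WT and 25.0 ± 7.35 CPM in Tumor, its ligand gene Ereg 0 and 9.25 ± 5.10 CPM, and Hgf, the ligand of Met, 0 and 1.54 ± 0.526 CPM. In the relapsed lines 0 genes of these lists were called against WT by edgeR. At an unadjusted p under 0.05 there were 19 of 96 entries, beside 1636 of all 14924 genes tested, and DESeq2 called 2, Ccnd1 and Klf4, both lower and named after their values were seen. Over all genes tested, DESeq2 called 176 in this comparison.

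**Figure D5:**
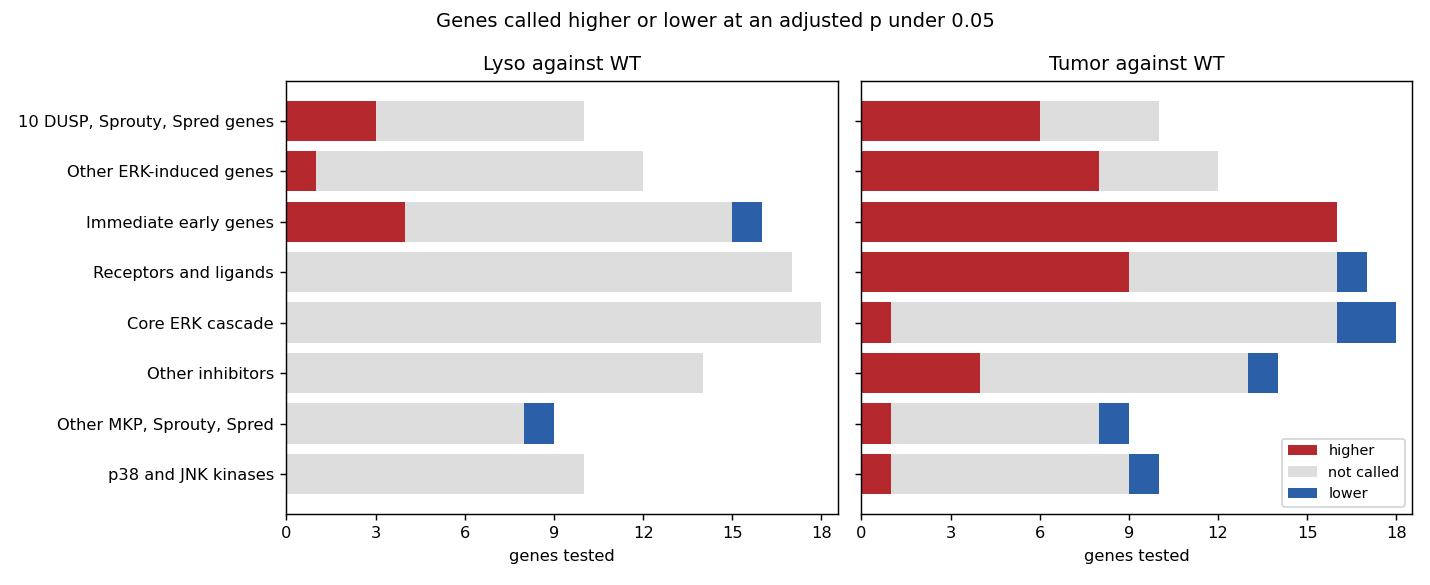
Genes tested in each list (x axis, number of genes) that were called higher, called lower or not called against WT, for Lyso (left) and Tumor (right). Immediate early genes were called in 16 of 16 cases in Tumor, while the core ERK cascade was called in 0 of 18 cases in Lyso and 3 of 18 in Tumor. The receptors and ligands called higher in Tumor include Egfr, Ereg and Hgf, which had 0 counts in WT.

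Genes with a profile most like that of a member were found by the root mean square difference of log2 CPM, relative to the WT mean, over the 12 libraries. For Dusp6 the nearest were the noncoding Gm26888 (0.27), Fchsd2 (0.33), which encodes an adaptor of endocytosis and actin, and Pde4d (0.36), a phosphodiesterase that breaks down cAMP. Fchsd2 had 27.7, 37.9, 69.5 and 51.5 CPM on average in WT, the relapsed lines, Lyso and Tumor. The nearest member to Dusp6 was Dusp2 (0.50), and Dusp1 was far from it (1.59). For Spry4 the nearest were Pdpn (0.45), Mir670hg (0.54) and Col4a4 (0.55), with Pdpn, a membrane glycoprotein gene, at 19.1, 12.9, 49.4 and 49.7 CPM in the same groups. For Dusp1 they were Podxl (0.26), Peli2 (0.27) and Xpnpep2 (0.28), each near 0 CPM in culture and at 1.92 to 2.18 CPM in Tumor. The log2 values carry a prior count of 2, which shrinks the differences of such low genes, so their nearness to Dusp1 depends on that setting. The member nearest to Dusp1 was Dusp5 (0.54). The libraries share depth and group, so these distances are descriptions.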

How the data were processed

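Per the labels and the methods, the authors trimmed reads with fastp 0.19.6, aligned them to GRCm38 with STAR 2.7.1a and deposited raw counts per gene, without normalization. The authors tested with DESeq2 1.24.0. The annotation release and strand setting were not given in the sources used here. Reads on genes made up 36.17% to 39.36% of a library, and 4 rows that name no gene (no feature, 43.53% to 44.77%; several loci, 11.35% to 14.91%; unmapped; ambiguous) were left out. Counts on genes ranged from 1667398 to 16402629, and 3 counts served as the floor, which covers counting error only.

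Counts were tested with edgeR 4.0.16 (R 4.3.3), TMM scaling and filterByExpr, with 4 groups, 6 comparisons and one fit. Scripts were tested on simulated data. Symbols and lengths came from GENCODE vM21, with 54079 identifiers matched, and promoters from RefSeq. The 10 genes, the lists and the rule for named genes (all members, up to 3 genes per list and direction with the largest change, and the 3 nearest profiles of Dusp6, Spry4 and Dusp1) were chosen with earlier results of these data known. Ccn1 was listed as Cyr61. Spry3 was not analysed here. Alternatives were DESeq2 1.42.0, RLE or library-size scaling, other count filters (none, or 10 counts in every library), a log2 minimum of 1, only the compared groups, a replicate block, each library left out, and WT of like depth.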

Additional observations from a re-analysis of the deposited data

How the results depend on the processing

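Of 822 recomputed log2 fold changes of single genes, 700 kept their direction and side of the threshold, 45 newly passed, 52 no longer passed and 25 changed sign, all 25 among differences that were not called. In Lyso against WT, 5 genes were called without the filter on low counts, 5 with only the compared groups and 1 to 2 with a library left out. Over all genes, 1371 of 28974 were called without that filter and 894 of 13684 with only the compared groups. With a library left out, 345 to 916 of all genes tested were called, against 703 in the main fit. In Tumor against Lyso the counts were 7 without the filter and 9 with only the compared groups, and in Lyso against the relapsed lines 2 with the log2 minimum and 2 with only the compared groups. With a library left out, 4 to 6 genes were called in Tumor against WT, 0 to 1 in the relapsed lines against WT, 4 to 8 in Tumor against the relapsed lines, 2 to 6 in Lyso against the relapsed lines and 4 in every case in Tumor against Lyso. In Tumor against WT, 1720 to 3714 of all genes tested were called with a library left out, against 2843 in the main fit. For the other comparisons the calls over all genes under each alternative are not given here, so those counts describe the 10 genes only. The cause of these shifts was not tested.

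Replicate numbers did not pair the libraries, since deviations of same-numbered libraries correlated at -0.008 to 0.065. With the replicate block the count was 3 in Lyso against WT, 5 in Tumor against WT and 8 in Tumor against Lyso. Over all genes tested, 475 of 13684 were called in Lyso against WT and 817 of 12301 in Tumor against WT. The number over all genes is not given here for Tumor against Lyso. Tumor shares only replicate numbers 1 and 3 with WT and with Lyso, so its block estimates rest on those libraries. In Lyso against WT the block lost Spry2 (adjusted p = 0.0752, edgeR) and gained Spry4 (0.0345). In Tumor against WT it lost Spry1 (0.0904) and Spred1 (0.175) and gained Spry4 (0.0434), and in Tumor against Lyso it gained Dusp4, Dusp6, Dusp10 and Spred1. Under the block the log2 fold change of Dusp10 in Lyso was 0.036 and that of Dusp2 in Tumor 0.13. No paired analysis was possible for the relapsed lines because their labels carry no replicate numbers.

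Dusp2 in Tumor against WT was at 0.014 with DESeq2, 0.001 with the minimum of 10 counts and 0.123 against WT 1 and WT 2. Against WT 3 alone, Spred1 was at -0.035 in Lyso, and Dusp10 and Spred1 at -0.404 and -0.142 in the relapsed lines. With a library left out, the log2 fold change in Lyso against WT ran from -0.097 to 0.002 for Dusp1 and from -0.462 to 0.516 for Dusp10, and in Tumor against WT from -0.198 to 0.123 for Dusp2. In the relapsed lines it ran from -0.060 to 0.740 for Dusp2, -0.075 to 0.620 for Dusp4, -0.465 to 0.349 for Dusp5, -1.293 to 0.747 for Dusp10, -0.619 to 0.364 for Spry4 and -0.108 to 0.198 for Spred1. It ran from -0.075 to 0.321 for Spry4 in Tumor against Lyso, from -0.774 to 0.034 for Dusp2 in Tumor against the relapsed lines, and from -0.217 to 0.478 for Dusp4 and -0.722 to 1.108 for Dusp10 in Lyso against the relapsed lines. The minimum of 10 counts left Dusp5, Dusp10 and Spry4 untested. WT 3 alone was assumed to vary like the other groups. The shallow WT 1 and WT 2 limit Dusp5, Dusp10 and Spry4 most.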
